A study of Rattus norvegicus with 10 samples.

Results

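Expression of the Egr and Nr4a families of immediate early transcription factors was examined in the hippocampus of rats with and without electrically induced status epilepticus. The 7 members were Egr1, Egr2, Egr3, Egr4, Nr4a1, Nr4a2 and Nr4a3. They were taken by gene symbol alone from a matrix of read counts with 32041 transcript rows (called features here). Each symbol matched 1 row, and all 7 members were among the 22447 features with enough reads to be tested. Messenger RNA had been sequenced from 10 male Sprague-Dawley rats, an outbred strain, from a piece of left hippocampus with CA3 and dentate gyrus. All 10 rats carried a stimulating electrode in the lateral amygdala. Sham rats 1 to 5 received no current. Rats 6 to 10 were stimulated for 30 min (60 Hz, 400 µA) until status epilepticus began, which is a prolonged seizure after which spontaneous seizures can develop, and which was stopped with diazepam. Tissue was taken 3 months after status epilepticus, under CO2 anaesthesia, with sham rats matched for age. The study's methods state that spontaneous seizures were seen on video EEG in all stimulated animals enrolled. The labels give neither the age in weeks nor the seizures of single rats. Hippocampal tissue is a mixture, and fewer cells of a type and less RNA per cell cannot be told apart in these values.

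Egr and Nr4a genes are immediate early genes, which means that they are transcribed within minutes of a stimulus without the need for new protein. In neurons the stimulus is synaptic activity and calcium entry, which act on the transcription factors SRF and ELK at a DNA element named the CArG box and on CREB at the cAMP response element (CRE). EGR proteins are zinc finger factors that bind GC-rich sites, and NAB1 and NAB2 are the co-repressors that they recruit. NR4A proteins are orphan nuclear receptors that act without a known natural ligand. They bind the NBRE element as single proteins, and NR4A1 and NR4A2 also pair with retinoid X receptors. Seizures are a classical inducer of both families in the hippocampus.

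The promoters of the members show which of these elements lie next to each gene. RefSeq sequences of the GRCr8 assembly were held for 5 of the 7 members, and Egr3 and Nr4a3 had no entry. The stretch of 250 bases before the transcription start was searched on both strands for the full CRE (TGACGTCA), its half-site (TGACG, or CGTCA on the other strand, which also lies inside the full element), the CArG box, an EGR site (GCGTGGGCG) and the NBRE (AAAGGTCA). The members whose promoters hold the most of these elements are shown 5′ to 3′, with half-sites and CArG boxes in capitals. Egr1 lies on the plus strand (chr18:26736828-26737077), Egr2 on the minus strand (chr20:21054442-21054691), Egr4 on the minus strand (chr4:119607818-119608067) and Nr4a1 on the plus strand (chr7:134259888-134260137).
Egr1: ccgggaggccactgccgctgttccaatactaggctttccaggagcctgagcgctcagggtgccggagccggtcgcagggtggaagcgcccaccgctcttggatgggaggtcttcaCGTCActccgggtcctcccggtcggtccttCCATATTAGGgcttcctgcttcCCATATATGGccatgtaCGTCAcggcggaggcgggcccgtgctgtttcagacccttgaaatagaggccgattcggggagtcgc
Egr2: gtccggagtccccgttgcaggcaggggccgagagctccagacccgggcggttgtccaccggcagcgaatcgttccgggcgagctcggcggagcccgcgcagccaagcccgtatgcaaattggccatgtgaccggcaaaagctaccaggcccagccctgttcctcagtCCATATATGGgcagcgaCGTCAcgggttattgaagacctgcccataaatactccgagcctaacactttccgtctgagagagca
Egr4: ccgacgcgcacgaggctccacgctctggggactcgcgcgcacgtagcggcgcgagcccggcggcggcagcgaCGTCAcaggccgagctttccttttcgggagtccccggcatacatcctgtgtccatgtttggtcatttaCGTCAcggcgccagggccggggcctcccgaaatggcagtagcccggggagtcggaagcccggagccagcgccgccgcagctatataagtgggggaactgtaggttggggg
Nr4a1: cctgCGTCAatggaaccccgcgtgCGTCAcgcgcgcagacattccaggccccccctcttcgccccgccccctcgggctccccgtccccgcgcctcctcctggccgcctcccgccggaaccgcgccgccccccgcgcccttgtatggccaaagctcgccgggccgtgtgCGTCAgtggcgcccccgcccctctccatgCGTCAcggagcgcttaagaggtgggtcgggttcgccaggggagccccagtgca

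Egr1 and Egr2 share the same arrangement next to the start, with a CArG box of identical letters from 83 to 74 bases before it and a CRE half-site from 66 to 62 bases before it. Egr1 has a further CArG box from 105 to 96 bases and a further half-site from 135 to 131 bases before its start. Egr4 held 2 half-sites, Nr4a1 held 4, and Nr4a2 (chr3:62104888-62105137, minus strand) held 1, from 8 to 4 bases before the start. A half-site was thus present in each of the 5 promoters and in 18.2% of the 33469 promoters of the table. A CArG box was present in Egr1 and Egr2 and in 1.50% of all promoters, and 0.230% of all promoters held both elements. The full CRE (1.59% of all promoters), the EGR site (0.478%) and the NBRE (1.24%) had 0 matches in these 5 windows. The GC content was lowest for Nr4a2, at 52%, and highest for Nr4a1, at 74.8%. These matches describe letters in a window of a newer assembly than the one the reads were aligned to.

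Sequencing depth overlapped between the groups. Aligned counts ranged from 13552309 to 24086059 in sham and from 15586870 to 21642792 in stimulated rats. The share of reads that the authors could not align was 32.8% to 37.1% in sham and 32.01% to 45.1% in stimulated rats, with the lowest value in rat 7 and the highest in rat 10. The defining markers of the labelled tissue were present. General neuronal genes averaged 8.72 to 8.81 on the log2 CPM scale in sham and 8.51 to 8.80 in stimulated rats, and CA3 genes 7.81 to 8.0 and 7.80 to 7.89. CPM are read counts scaled to a common library size. The range of dentate granule cell genes was 5.63 to 6.07 in sham and 5.38 to 6.31 in stimulated rats, with rat 9 highest and rat 10 lowest.

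The first question was whether the members differed between stimulated and sham rats. Of the 7 members, 6 were higher in stimulated rats at an unadjusted p-value under 0.05 in the quasi-likelihood test of edgeR, all but Nr4a3, and 0 were lower. Of all tested features 6.7% were higher and 3.16% lower at this threshold. At the cut-off used in the study, an unadjusted p-value under 0.001, Egr2 alone of the members was higher, against 0.156% of all features. This count was 4 without rat 8, 2 without rat 6 and 0 without any 1 of the other rats. The share of all features at 0.001 was not counted for these omissions. At an unadjusted p-value under 0.05, in either direction, 3034 features passed without rat 8 and 3145 without rat 6. Without any 1 of the other rats 1657 to 2063 passed, against 2214 with every rat. Calls over all features thus rose in the same omissions, and the counts of 4 and 2 are not specific to the members. After Benjamini-Hochberg adjustment over all 22447 features 0 members passed 0.05, and 0 features did (0% of all, 2214 at an unadjusted p-value under 0.05). The likelihood ratio test of edgeR called 2 members higher, Egr2 (adjusted p = 0.0113) and Egr4 (adjusted p = 0.0399), and 0.494% of all features, and DESeq2 called 0 members among its 32 features. The log2 fold changes, stimulated over sham, were largest for Egr2 and smallest for Nr4a3, beside a median of 0.01 over all features.

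**Figure D1:**
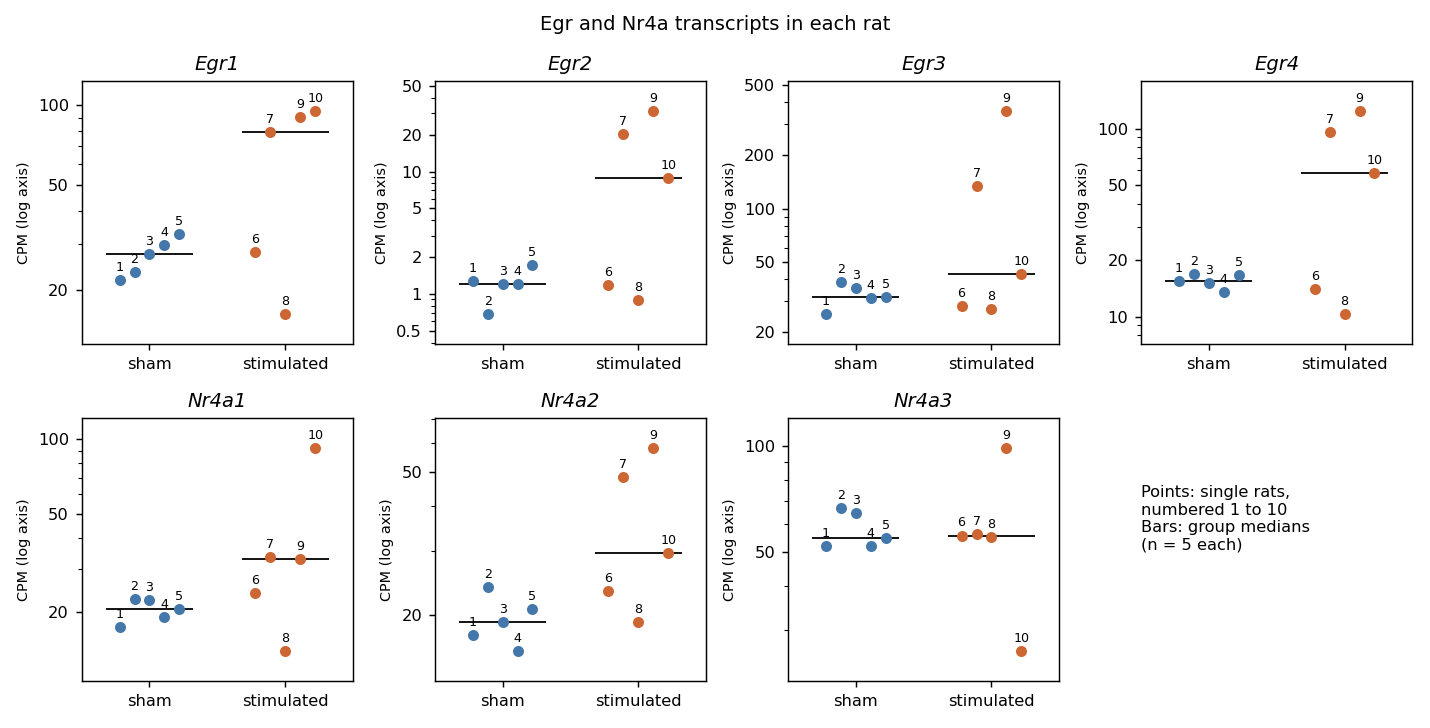
Expression of the 7 members in each rat. The vertical log axis is CPM, each point is 1 rat with its number beside it (blue, sham rats 1 to 5; orange, stimulated rats 6 to 10), and bars are medians of 5 rats. For each Egr gene rats 7, 9 and 10 lie above all sham rats and rats 6 and 8 do not.

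Egr1, also known as Zif268, is needed for the late phase of synaptic potentiation and is the most widely used activity marker of the family. Its transcript (NM_012551) stood at 21.8, 23.4, 27.5, 29.6 and 32.5 CPM in sham rats 1 to 5. In stimulated rats 6 to 10 it stood at 27.9, 79.4, 16.3, 90.2 and 94.9 CPM. Rats 7, 9 and 10 were above all sham rats, rat 6 lay within the sham range and rat 8 below it. Mean expression was 27.0 ± 4.38 CPM in the sham group against 61.7 ± 36.9 CPM after stimulation (SD, n = 5 each). The fitted log2 fold change was 1.19 (SE 0.381, adjusted p = 0.399). Counts behind these values ran from 255 to 1840 reads, so counting error was small beside the differences between rats.

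Egr2, known as Krox20, is induced by strong activity in neurons and is also the master regulator of myelination in Schwann cells. It was nearly silent in sham rats, at 1.28, 0.687, 1.20, 1.20 and 1.72 CPM (NM_053633). In stimulated rats it was 1.18, 20.3, 0.894, 31.0 and 8.82 CPM. The 3 high rats had 438, 608 and 171 reads, whereas all 7 others had between 9 and 41, and for the lowest, sham rat 2, the 95% counting interval (exact Poisson) was 4.12 to 17.1 reads. Group means were 1.22 ± 0.366 and 12.4 ± 13.0 CPM (SD, n = 5 each). The fitted log2 fold change of 3.32 was the largest among the members (SE 0.790, adjusted p = 0.376).

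Egr3 acts downstream of calcineurin and MAP kinase signals in neurons and has been tied to the regulation of GABA-A receptor subunits in epilepsy. Sham values were 25.4, 38.3, 35.6, 31.3 and 31.6 CPM (NM_017086). Stimulated values were 28.1, 135, 27.0, 355 and 42.9 CPM. Rat 9 reached 10.9 times the sham mean, rat 7 reached 4.16 times and rat 10 only 1.32 times, just above the highest sham rat. The log2 fold change was 1.86 (SE 0.600, adjusted p = 0.399). Without rat 9 it was 0.85 and no longer passed the unadjusted threshold. For this member the size of the group difference therefore rested on 1 rat more than on the others.

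Egr4, also called NGFI-C, is the least studied of the family and binds the same GC-rich sites. It had the narrowest sham range of the Egr genes, with 15.4, 16.9, 15.1, 13.5 and 16.6 CPM (NM_019137), a coefficient of variation of 8.87%. Stimulated rats had 14.0, 96.3, 10.3, 124 and 58.4 CPM. The values of rats 7, 9 and 10 were 6.21, 7.98 and 3.76 times the sham mean, and that of rat 8 fell below every sham value. Group means were 15.5 ± 1.38 and 60.5 ± 49.9 CPM (SD, n = 5 each), and the fitted log2 fold change was 1.97 (SE 0.531, adjusted p = 0.376).

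Nr4a1, known as Nur77, links activity to dendritic spine density and to metabolism. Sham rats had 17.5, 22.6, 22.4, 19.2 and 20.6 CPM (NM_024388). In stimulated rats Nr4a1 was 23.9, 33.3, 14.0, 32.6 and 92.1 CPM. Rat 6 joined rats 7, 9 and 10 above the sham range, by a small margin, and rat 10 alone reached 4.5 times the sham mean. Group means were 20.4 ± 2.19 and 39.2 ± 30.6 CPM (SD, n = 5 each). The fitted log2 fold change of 0.94 (SE 0.368, adjusted p = 0.431) was 0.35 without rat 10, and it missed the unadjusted threshold without rat 10 and without sham rat 1, where it was 0.88.

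Nr4a2, known as Nurr1, is required for midbrain dopamine neurons and takes part in hippocampal memory formation. Its sham values were 17.6, 24.0, 19.1, 15.9 and 20.8 CPM (NM_019328). Stimulated rats had 23.3, 48.2, 19.1, 58.1 and 29.7 CPM. The order of the 3 high rats was that of the Egr genes other than Egr1, with rat 9 first, then rat 7 and then rat 10, but the ratios to the sham mean were smaller, at 2.99, 2.48 and 1.52. Group means were 19.5 ± 3.10 and 35.7 ± 16.8 CPM (SD, n = 5 each), and the fitted log2 fold change was 0.88 (SE 0.261, adjusted p = 0.396).

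Nr4a3, known as NOR-1, is the remaining receptor of the family and overlaps in function with Nr4a1. It was the only member without a difference between the groups at the unadjusted threshold. Sham rats had 51.9, 66.6, 64.5, 52.0 and 54.9 CPM (NM_031628). In the stimulated group the values were 55.7, 56.3, 55.1, 98.9 and 26.2 CPM. Rats 6, 7 and 8 lay inside the sham range, rat 9 above it at 1.71 times the sham mean, and rat 10 below it at 0.451 times. The 2 departures were in opposite directions, and the group means of 58.0 ± 7.06 and 58.4 ± 25.99 CPM (SD, n = 5 each) gave a fitted log2 fold change of 0.01 (SE 0.244, adjusted p = 0.992).

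**Figure D2:**
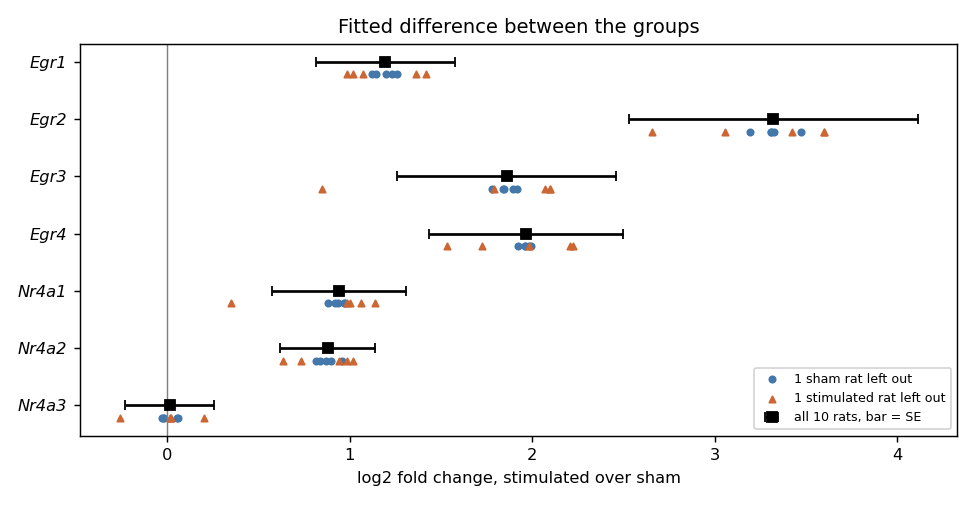
Fitted log2 fold changes, stimulated over sham, of the 7 members. Black squares with bars are the values with SE over 10 rats, blue circles leave out 1 sham rat and orange triangles 1 stimulated rat. Egr3 drops most when 1 stimulated rat is left out, from 1.86 to 0.85, Egr2 goes from 3.32 to 2.66 and Nr4a1 from 0.94 to 0.35, and Nr4a3 lies on both sides of 0.

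Read by rat rather than by gene, the stimulated rats differed in these members. In rat 9 all 7 members were above every sham rat, from 1.60 times the sham mean for Nr4a1 to 25.5 times for Egr2. In rat 7 and in rat 10 6 of 7 members were above every sham rat, and the exception was Nr4a3 in both. Rat 6 had 1 member above the sham rats, Nr4a1, and its ratios ran from 0.866 to 1.20. Rat 8 had 0 members above all sham rats. It had 3 members below them, Egr1, Egr4 and Nr4a1, with the lowest ratio at 0.604 for Egr1. How many of all features lay above or below all sham rats in each single rat was not counted. For 6 of the 7 members at least 3 of the 5 stimulated rats exceeded the highest sham rat, and this was so for 14.8% of all tested features. The unaligned share of reads in rats 6 to 10 was 35.6%, 32.01%, 41.4%, 42.9% and 45.1%, and its part in these values was not tested.

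**Figure D3:**
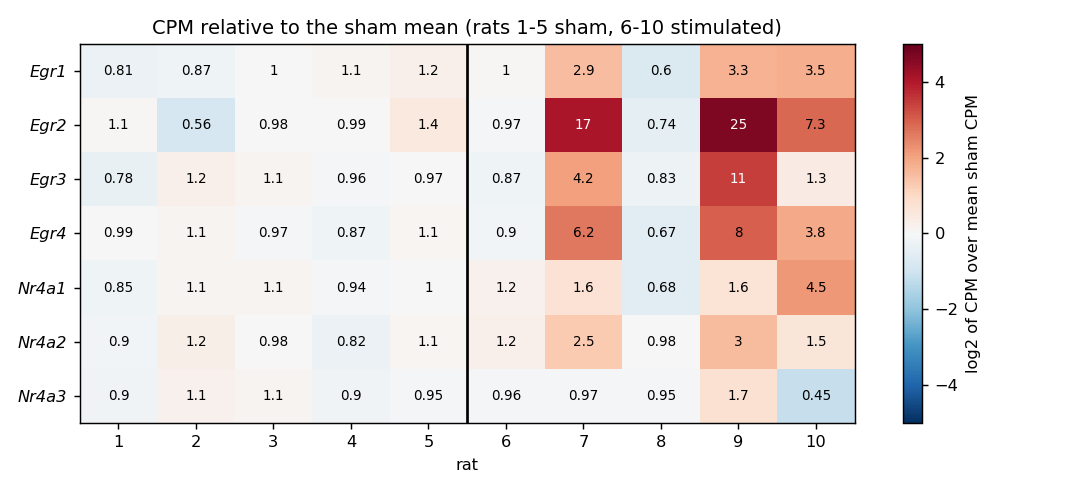
CPM of each member in each rat divided by the mean of the 5 sham rats. Columns are rats (1 to 5 sham, 6 to 10 stimulated), rows are members, the printed number is the ratio and the colour its log2 value. Rats 7, 9 and 10 carry the high ratios, with Egr2 at 16.7, 25.5 and 7.25, and rat 10 differs from the other high rats in Nr4a1 (4.5) and Nr4a3 (0.451).

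The 3 rats with high values did not share 1 profile. Relative to rat 9, rat 10 had 1.05 times as much Egr1, 0.472 times as much Egr4, 0.285 times as much Egr2 and 0.121 times as much Egr3. It had 2.82 times as much Nr4a1, 0.511 times as much Nr4a2 and 0.265 times as much Nr4a3. In rat 10 Egr1, Egr2, Egr4 and Nr4a1 were thus the members farthest above the sham mean, while Egr3 and Nr4a2 were at 1.32 and 1.52 times it and Nr4a3 at 0.451 times. Rat 7 was closer to rat 9, at 0.381 to 1.02 times its level over the 7 members. Rats 6 and 8, which both lacked the high Egr values, differed by 0.584 times in Egr1 and Nr4a1, lower in rat 8.

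Ratios of 2 members within a library do not depend on its scaling, and 3 of them were computed after the values had been seen. Nr4a1 to Nr4a3 counts were in a ratio of 0.336 to 0.375 in the 5 sham rats. In rats 6 to 10 this ratio was 0.430, 0.592, 0.254, 0.330 and 3.52. Rats 6, 7, 8 and 10 lay outside the narrow sham range, and rat 10 lay farthest from it. Rat 9, at 0.330, was just below the lowest sham ratio of 0.336. By the counting interval used for Egr2 (exact Poisson), its 640 Nr4a1 reads could range from 591 to 692. Rat 9 could therefore not be told apart from the sham range. The ratio of Egr3 to Egr1 was 0.972 to 1.64 in sham rats and 1.01, 1.70, 1.66, 3.93 and 0.452 in rats 6 to 10, with rat 9 at one end and rat 10 at the other. Egr2 to Egr1 was 0.0293 to 0.0587 in sham rats and 0.0422, 0.256, 0.0549, 0.344 and 0.0929 in rats 6 to 10. Relative to Egr1, Egr2 was thus above the sham range in rats 7, 9 and 10 and within it in rats 6 and 8. No test was made on these ratios.

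The second question was whether stimulated rats differed from one another more than sham rats did. The SD of log2 CPM between rats was larger in the stimulated group for each member, from 3.02 times the sham SD for Nr4a2 to 12.5 times for Egr4. The ratio for Egr4 exceeded that of 99.8% of tested features, and that for Nr4a2 exceeded 88.1%. Absolute deviations from the group mean were compared with limma over all features. The deviation was larger in stimulated rats for 4 members at an adjusted p-value under 0.05, the 4 Egr genes, and for 0.895% of all features. The difference in mean absolute deviation, stimulated minus sham on the log2 scale, was 0.88 for Egr1 (SE 0.156, adjusted p = 0.0253 by limma), 1.83 for Egr2 (SE 0.347, adjusted p = 0.0318), 1.31 for Egr3 (SE 0.260, adjusted p = 0.0383) and 1.44 for Egr4 (SE 0.214, adjusted p = 0.0165). For Nr4a1 it was 0.58 (SE 0.274, adjusted p = 0.349 by limma), for Nr4a2 0.43 (SE 0.127, adjusted p = 0.136) and for Nr4a3 0.30 (SE 0.202, adjusted p = 0.514).

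**Figure D4:**
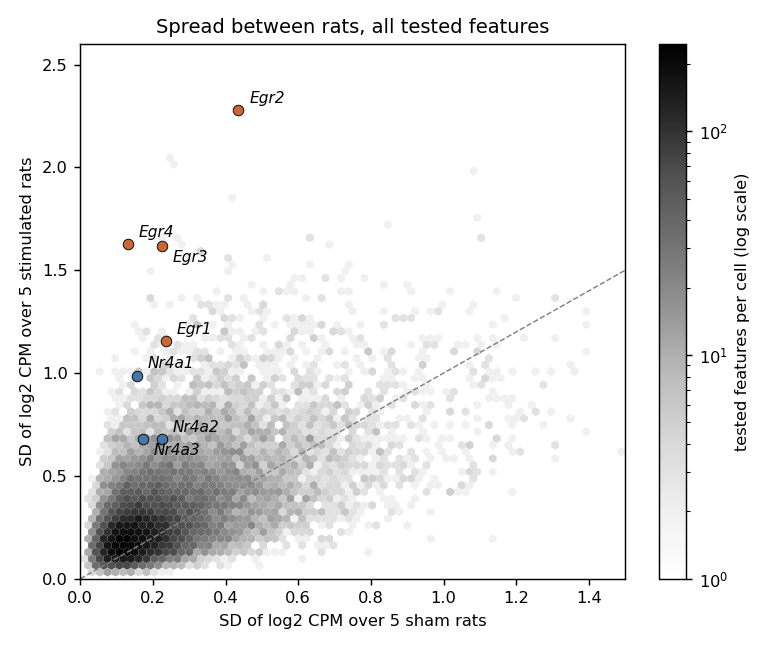
Spread between rats for all 22447 tested features and for the members. The axes are the SD of log2 CPM over 5 sham rats and over 5 stimulated rats, grey cells count features on a log scale, the dashed line marks equal spread, and the members are orange (Egr) or blue (Nr4a). All 7 members lie above the line, with Egr2 highest and Egr4 at the largest ratio.

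These calls were not stable. Deviations taken from the group median gave 0 members and 0 features (0% of all) at an adjusted p-value under 0.05, and 4 members, Egr2, Egr3, Egr4 and Nr4a2, at an unadjusted one, where 3.26% of all features had a larger spread in stimulated rats. Leaving out any 1 sham rat left 0 members called, and 0 to 4 of all features. Without rat 6 or without rat 8 only Egr3 was called, among 382 and 408 features. Without rat 7 or without rat 9 Egr1, Egr2 and Egr4 were called, among 157 and 606 features. Without rat 10 5 members were called, the 4 Egr genes and Nr4a2, among 408 features. With all 10 rats 203 features were called, so calls over all features moved as well as those of the members.

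The order of the rats was next compared between members. The mean absolute difference in rank over the 10 rats was 1.0 between Egr3 and Egr4, the closest pair, and 1.2 to 2.4 between the other pairs of the 6 members without Nr4a3. For Nr4a3 it was 2.0 against Nr4a2 and up to 3.6 against Egr2. The median over all features was 3.2 or 3.4 depending on the member. Rats of both groups enter these ranks, so a gene that was high in rats 7, 9 and 10 is bound to be near the members.

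Of 12308 genes searched, those with the closest order are given for each member. For Egr1 they were Alg2, Tmbim6 and Mvd (0.6 each), for Egr2 Gabpb1 (0.2), Phlpp1 and Mvp (0.6 each), and for Egr3 Smap2, Irs2 and Rtn4rl2 (0.4 each). For Egr4 they were Emd and Fosl2 (0.6 each) and Fyn (0.8), for Nr4a1 Colq (0.2) and Elovl5 (0.4), for Nr4a2 Vhl (0.4), Rap1b and Adipor2 (0.6 each), and for Nr4a3 Fgfr1 (0.2), Bmpr2 and Ankrd52 (0.6 each). Likeness in order is not likeness in size. Irs2, an adaptor of insulin signalling, ran from 79.2 CPM in rat 6 and 74.8 CPM in rat 8 to 341 CPM in rat 9, beside a sham mean of 79.5 ± 7.31 CPM (SD, n = 5). Fosl2, an AP-1 subunit, was 52.7 CPM in rat 9 against 8.501 ± 1.01 CPM in sham (SD, n = 5), whereas Gabpb1 had the order of Egr2 with values between 7.79 and 15.7 CPM in the stimulated rats. Rat 10 was the lowest of the stimulated rats for Fgfr1, at 138.5 CPM, and rat 9 the highest, at 258 CPM, as for Nr4a3.

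Other immediate early genes were measured beside the members. All 28 genes of this list were tested. At an unadjusted p-value under 0.05, 20 were higher after stimulation and 0 lower, beside 6.7% and 3.16% of all features. At 0.001, 3 were higher, beside 0.156% of all features, and 0 passed the adjusted threshold. The median log2 fold change was 1.50, beside 0.01 over all features. The 4 lowest p-values belonged to Fos, the partner of JUN in AP-1 (log2 fold change 3.47, SE 0.693), Nfil3, a bZIP repressor (1.58, SE 0.327), Sik1, a kinase that restrains CREB coactivators (2.35, SE 0.563) and Fosb, a second AP-1 subunit (3.33, SE 0.802). Fos was 4.12 ± 0.751 CPM in sham rats (SD, n = 5) and 5.61, 106, 5.24, 50.3 and 61.7 CPM in rats 6 to 10. Rats 7, 9 and 10 were the high ones here too, though rat 7 led for Fos and rat 9 for Fosb, the latter at 214 CPM beside 120 CPM in rat 7.

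Counted over the list, 22, 24 and 23 of the 28 genes were above all sham rats in rats 7, 9 and 10, 11 were so in rat 6 and 5 in rat 8. Below all sham rats were 4, 1, 9, 3 and 1 genes in rats 6 to 10. The share over all features was not counted for single rats. Sik1 was above the sham rats in all 5 stimulated rats, and its high value was 19.4 CPM in rat 9, beside 2.06 CPM in rat 10. Npas4, a neuronal factor induced by calcium entry, was 11.9 CPM in rat 10 and 0.371 to 1.31 CPM in rats 6 to 9, with a sham mean of 0.558 ± 0.424 CPM (SD, n = 5). Ccn1, a matrix protein controlled by SRF, was 22.8 CPM in rat 7 and 0.319 to 1.24 CPM in the other stimulated rats. Npas4 and Ccn1 were chosen after their values were seen, and rest on a mean of 36.2 and 59.2 reads per library. Like the members, the other genes of this class were therefore led by different rats.

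**Figure D5:**
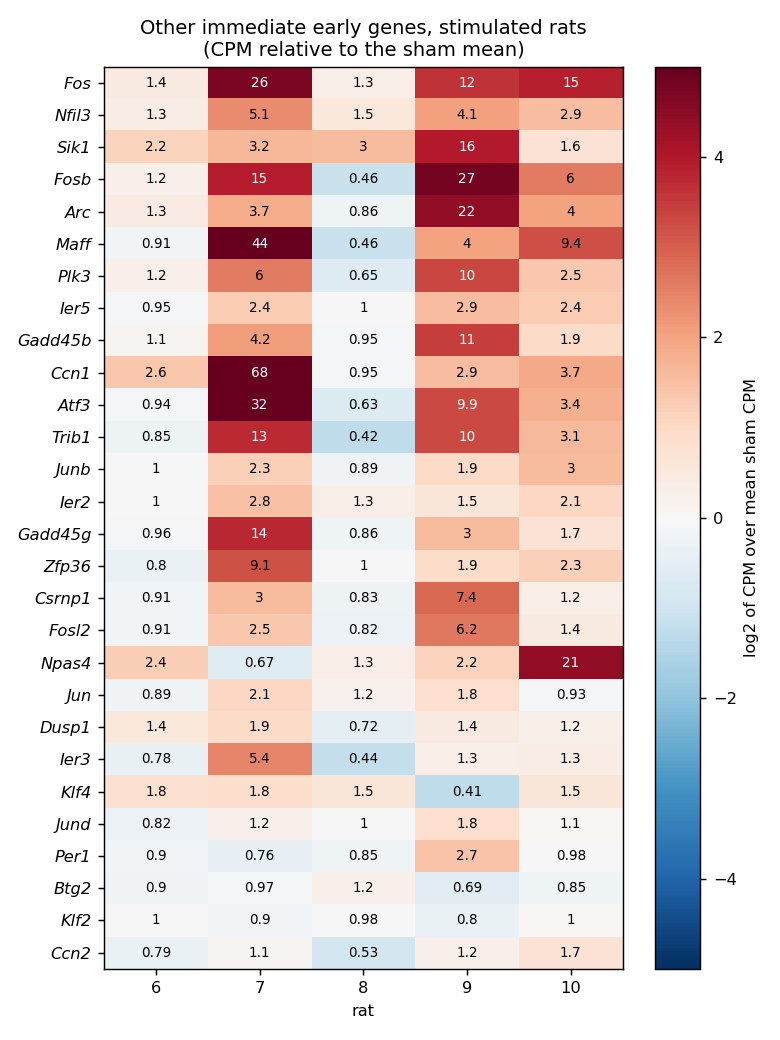
Other immediate early genes in the 5 stimulated rats, as CPM divided by the sham mean. Columns are rats 6 to 10, rows are the 28 genes ordered by p-value in the quasi-likelihood test, the printed number is the ratio and the colour its log2 value. Rats 7, 9 and 10 exceed all sham rats in 22, 24 and 23 genes, and rats 6 and 8 in 11 and 5. Genes below all sham rats number 4, 1, 9, 3 and 1 in rats 6 to 10.

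Regulators that act on the Egr and Nr4a promoters were read next. Of 20 listed, 15 were tested, with 1 higher and 3 lower at an unadjusted p-value under 0.05 (6.7% and 3.16% of all features), 0 at the adjusted threshold and a median log2 fold change of 0.05. Elk3, an SRF partner, was higher (log2 fold change 0.86, SE 0.282, adjusted p = 0.399). Mapk3, which encodes the kinase ERK1, was lower (-0.66, SE 0.207, adjusted p = 0.396), as were Rps6ka4, a kinase of CREB and histone H3 (-0.33, SE 0.109), and Crtc1, a CREB coactivator (-0.31, SE 0.106). Elk3 was 47.5 CPM in rat 9, 27.4 in rat 7, 26.4 in rat 10, and 14.2 and 15.4 in rats 6 and 8, with a sham mean of 14.4 ± 3.04 CPM (SD, n = 5). Rats 7, 9 and 10 were the high ones, and a single call among the tested regulators is near the share over all features.

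Of 7 co-repressors and factors of the GC-rich element, 4 were tested, with 1 higher and 0 lower at the unadjusted threshold (6.7% and 3.16% of all features). At the adjusted one 0 passed, and the median log2 fold change was 0.22. Sp1, which binds GC-rich sites that overlap those of EGR proteins, was higher (log2 fold change 0.51, SE 0.154, adjusted p = 0.396), and each of the 5 stimulated rats exceeded the highest sham rat. The co-repressor Nab2 was at 0.40 on the same scale (SE 0.222, adjusted p = 0.567), and its value in rat 9 was 109.7 CPM against 42.0 to 53.0 CPM in the other stimulated rats and 45.4 ± 2.15 CPM in sham (SD, n = 5). Nab2 is itself a reported Egr target. Rat 9 had the highest Egr2, Egr3 and Egr4 and the highest Nab2. Rats 7 and 10, where each Egr gene was also above all sham rats, had Nab2 at 52.2 and 42.0 CPM. A link between Nab2 and the Egr genes was not tested. Nab1 (0.02, SE 0.122) and the acetyltransferase gene Crebbp (0.05, SE 0.124) differed by less than their error.

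Reported Egr targets were 16 genes, all tested, with 6 higher and 0 lower at an unadjusted p-value under 0.05 (6.7% and 3.16% of all features). At the adjusted threshold 0 passed, and the median log2 fold change was 0.21. Arc, a synaptic protein counted in the list of immediate early genes as well, was higher (log2 fold change 2.66, SE 0.684), with 68.3, 188, 44.4, 1118 and 208 CPM in rats 6 to 10 beside 51.4 ± 6.88 CPM in sham (SD, n = 5). F3, tissue factor, was higher (0.74, SE 0.207), and so were Cd44, a hyaluronan receptor (2.23, SE 0.672), and Tgfb1, a cytokine (0.77, SE 0.274). Cd44 reached 95.3 CPM in rat 7, with 13.9 and 20.5 CPM in rats 9 and 10 and 5.20 and 5.11 CPM in rats 6 and 8, beside 6.003 ± 1.02 CPM in sham. Over the list, 10, 13 and 11 of 16 genes were above all sham rats in rats 7, 9 and 10, and 2 and 4 in rats 6 and 8. Below all sham rats were 1, 2, 2, 3 and 1 genes in rats 6 to 10. Such counts over all features were not made for single rats. The order of the 3 high rats differed between Arc, led by rat 9, and Cd44, led by rat 7.

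Nr4a partners and reported targets gave a mixed result. Of 12 listed, 11 were tested, with 2 higher and 2 lower at an unadjusted p-value under 0.05 (6.7% and 3.16% of all features), 0 at the adjusted threshold and a median log2 fold change of -0.07. Bdnf, a neurotrophin, was higher (log2 fold change 2.81, SE 0.693, adjusted p = 0.376), at 4.84, 91.8, 4.79, 71.7 and 23.3 CPM in rats 6 to 10 beside 5.58 ± 0.976 CPM in sham (SD, n = 5). Ret, a receptor tyrosine kinase, was higher (1.12, SE 0.353), and Pomc, a peptide hormone precursor, was lower (-1.08, SE 0.389) at only 42.3 reads per library. The retinoid X receptor genes had small values, Rxrb -0.26 (SE 0.106, adjusted p = 0.448), Rxrg -0.26 (SE 0.132) and Rxra -0.08 (SE 0.191). Bdnf was thus above all sham rats in rats 7, 9 and 10, as were Nr4a1 and Nr4a2. The order of these rats differed, since rat 7 led for Bdnf, rat 9 for Nr4a2 and rat 10 for Nr4a1. A link between Bdnf and the Nr4a genes was not tested.

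Markers of cell types were read beside these values, as mean log2 CPM per rat. Interneuron genes were 4.81 to 5.05 in sham rats and 5.07, 5.52, 4.53, 5.61 and 5.53 in rats 6 to 10, so the mean was highest in the same 3 rats. The single genes did not move together, since 2 of 7 were above and 3 below all sham rats in rat 7, 3 above and 0 below in rat 9, and 3 above and 3 below in rat 10. Npy, a peptide that other neurons also make after seizures, was the 1 gene of these 7 higher at an unadjusted p-value under 0.05 (6.7% of all features). Its log2 fold change was 3.22 (SE 0.748), at 8.60, 192, 5.36, 80.2 and 107 CPM in rats 6 to 10 against 8.43 ± 2.38 CPM in sham (SD, n = 5). The high mean of the interneuron list in rats 7, 9 and 10 includes these Npy values, and a mean without Npy was not computed. Gad1, which makes GABA, was 120.5 and 114 CPM in rats 7 and 10, below all sham rats. Astrocyte genes were 8.29 to 8.56 in sham and 8.42 to 8.80 in stimulated rats, and Gfap, the astrocyte filament, was 1326, 6469, 1375, 2079 and 5396 CPM in rats 6 to 10 against 1593 ± 222 CPM in sham (SD, n = 5). The 6 astrocyte genes did not move together. In rat 7, 3 were above all sham rats, Gfap, Aqp4 (162 CPM against 109 ± 14.4 CPM in sham) and Slc1a3 (749 against 573 ± 43.6 CPM). The other 3 were below all sham rats in rat 7, among them Aldh1l1 at 16.4 CPM against 44.2 ± 4.20 CPM in sham. In rat 9, 4 were above and 0 below, and in rat 10, 3 above and 1 below. Endothelial genes were 4.25 to 4.40 in sham and 4.20 to 5.17 in stimulated rats, with rat 10 highest and rat 7 lowest.

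Schwann cell genes were 2.47 to 2.77 in sham and 2.65, 3.45, 4.55, 2.91 and 2.99 in rats 6 to 10, with rat 8 highest. Microglial genes were 4.63 to 4.99 and 4.72 to 5.08 in the 2 groups, oligodendrocyte genes 8.12 to 8.65 and 7.80 to 8.54, CA1 genes 2.86 to 3.68 and 2.59 to 4.02, striatal genes 2.53 to 2.78 and 1.93 to 3.03, choroid plexus genes -1.18 to 0.387 and -0.24 to 0.774, and blood cell genes 3.58 to 4.99 and 4.07 to 4.82. Interneuron, astrocyte and microglial genes were thus the lists whose 3 highest stimulated rats were 7, 9 and 10. Rat 7 stayed within the sham range for astrocyte genes, at 8.54, and rat 10 for microglial genes, at 4.87. General neuronal genes went the other way, at 8.66, 8.67 and 8.51 in rats 7, 9 and 10, below the lowest sham rat at 8.72, and at 8.80 and 8.77 in rats 6 and 8. In rats 7, 9 and 10, 4, 3 and 5 of the 7 neuronal genes were below all sham rats. Above all sham rats were 2 in rat 7, Nefl and Tubb3, and 0 in rats 9 and 10. For none of the marker lists was such a count made over all features in single rats. CA1 genes were highest in rat 6, at 4.02, where all 5 were above all sham rats. They were lowest in rat 10, at 2.59, with 0 above and 2 below. Oligodendrocyte genes were lowest in rat 7, at 7.80, where all 6 were below all sham rats. In rats 6, 8, 9 and 10, 0, 1, 0 and 0 of them were below. The part of these markers in the Egr and Nr4a values was not tested.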

How the data were processed

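The deposited file was 1 matrix of read counts per RefSeq transcript, whole numbers with no normalization. Per the submitters' processing notes and the study's methods, the authors aligned single reads of 36 cycles to the rn4 genome with BWA. The methods name an Ensembl annotation, while the deposited rows carry RefSeq identifiers, and neither the use of strand nor the counting of reads on several transcripts was given, so reads of overlapping genes cannot be told apart. The methods also count fewer stimulated rats than the labels and do not name the rat left out, so all 10 labelled libraries were used. Unaligned reads were excluded from library sizes and tests.

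Symbols came from the RefSeq table of GRCr8, for 17363 of 32041 features and 12962 of 22447 tested ones. The members and gene lists were chosen with earlier results of these data known. The named genes are the members, the 3 genes closest to each in rank of the rats, the 4 genes of each list with the lowest p-value, and Nab1, Nab2, Rxra, Rxrb and Rxrg. Of these, 1 gene close to Nr4a1 is not reported here. Npas4, Ccn1 and the single genes of the marker lists fall outside this rule and were chosen after their values were seen. Following the study, features with a summed count under the 30th percentile (46) were left out. The deposited counts, scaled by TMM, entered the quasi-likelihood F test of edgeR (version 4.0.16, R version 4.3.3) with the group as the sole term, and p-values were adjusted over all tested features by the Benjamini-Hochberg method. CPM used TMM library sizes, and log2 CPM a prior count of 2. Spread was compared with limma 3.58.1 on absolute deviations of log2 CPM from the group mean. Both fits were tested on simulated data. Alternatives were other scalings, filters and tests, including DESeq2 1.42.0, and the omission of each rat. Tables and plots were made with numpy 2.4.6, pandas 2.3.3, scipy 1.17.1 and matplotlib 3.10.9.

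Aligned counts of 13552309 to 24086059 per library set the counting precision, and intervals cover counting error only. Libraries of a group differed beyond sampling noise (chi-square per degree of freedom of 10.2 or more). The labels name single rats, give no batch, and p-values measure the spread between these rats.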

Additional observations from a re-analysis of the deposited data

Results flagged for a closer look

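Among 50 groups of 5 rats examined with Dixon's criterion, over log2 CPM of the members and of the gene lists, 1 rat stood far from the others of its group, where 2.5 are expected by chance. It was sham rat 4, whose mean log2 CPM of oligodendrocyte genes was 8.12 against 8.52 to 8.65 in the other sham rats, with a gap of 0.752 of the whole range beside a critical value of 0.71. The members gave no such rat on this scale. On the linear CPM scale, looked at after the values were seen, the gap of rat 10 for Nr4a1 was 0.753 of the range (0.540 on the log2 scale), which is above the critical value, and that of rat 9 for Egr3 was 0.670 (0.375 on the log2 scale).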

How the results depend on the processing

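With 5 rats a group, the log2 fold changes of the 6 members other than Nr4a3 kept their sign under all alternatives tried, and of the 126 values of all members 119 kept direction and side of the adjusted threshold, 2 passed it (Egr2 and Egr4 in the likelihood ratio test) and 5 turned, all for Nr4a3. Those were -0.093 with limma-voom and -0.032, -0.025, -0.016 and -0.26 without sham rats 1, 4, 5 and stimulated rat 9, in a range of -0.26 to 0.20 over single rats left out. Features at an adjusted p-value under 0.05 numbered 119 in the likelihood ratio test and 32 in DESeq2, against 0, and members 2 in the likelihood ratio test. Members higher at an unadjusted p-value under 0.05 were 2 with limma-voom, against 6, and 5 or 6 with 1 rat left out. Those at 0.001 were 2 in the likelihood ratio test and in DESeq2, and 0 with limma-voom and with adjusted deviances, against 1. With 1 rat left out they were 0 to 4. The share of all features at 0.001 was not counted for these alternatives. Features at an unadjusted p-value under 0.05 numbered 1657 to 3145 with 1 rat left out, against 2214. Features whose spread differed numbered 203, 0 about the median and 0 to 606 with 1 rat left out, and members with larger spread 4, 0 and 0 to 5. The differences in spread kept their sign in all 98 values, 32 of which lost the call and 1 of which gained it. No paired analysis was possible because each rat number occurs once. Egr2 in sham rats is limited by depth, at 9 to 41 reads.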
